A study of Mus musculus with 6 samples.

Results

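Loss of *Sox4* alone was examined in mouse keratinocytes, which make up most of the epidermis, with the 2 arrays labelled Sox4 cKO out of the 6 arrays of the series. Both arrays were taken by the genotype in their labels, and no measured value was used to choose them. Each array carried RNA from cells with the genotype Krt14-Cre; Sox4 fl/fl in one channel and wild-type control RNA in the other. The knockout RNA carried the dye Cy5 on replicate 1 and Cy3 on replicate 2, so the replicates also form a dye swap. The other 4 arrays held Sox11 cKO cells (Krt14-Cre; Sox11 fl/fl) and cells lacking both genes (dcKO), 2 arrays each, and were used here for comparison and for a shared estimate of spread. The cells were primary cultures from the skin of newborn mice, kept first on fibroblast feeders and then without them. The floxed parental animals, on a mixed 129SvEx and C57BL/6 background, were crossed to Krt14-Cre mice of the FVB/N strain. Krt14-Cre deletes floxed DNA in basal keratinocytes. The parental floxed animals also lacked *Sox12*. Whether the arrayed cells or their controls carried that deletion, and whether the controls carried Cre or a floxed allele, is not given in the sources used here. Neither is it given whether one culture of wild-type cells served more than 1 array, so the p-values measure only the spread between these arrays.

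SOX4 belongs to the SoxC group of transcription factors together with SOX11 and SOX12. These proteins bind DNA through a high-mobility-group box, and the paper describes them as crucial and partly redundant in development. Related members can stand in for each other, so that loss of one is often milder than loss of several.

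Values are log2 ratios of knockout over wild type, so that a negative value means less RNA in the knockout. A probe was called where its limma adjusted p was below 0.05 and its log2 fold change was above 1.5 in size. Levels are log2 intensities of a single channel, made comparable between channels as described with the processing, and they are set side by side only for the same probe. On the Sox4 cKO arrays, 40.6% and 41.7% of the probes were well above background in the knockout channels and 43.0% and 37.3% in the wild-type channels. A lower level in cultured cells cannot be told apart from fewer cells of the type that holds the RNA. The 6 keratinocyte markers *Krt5*, *Krt14*, *Trp63*, *Itga6*, *Itgb4* and *Col17a1* were above background in every channel of these arrays, with log2 fold changes from -0.40 to 0.16, and 0 of them were called. Of 13 fibroblast markers, 4 were above background in any of these channels, and 0 were called. The summed level of all 13 lay between 404 and 422 intensity units in all 4 channels. The 9 markers not above background enter that sum, so a part of it is background.

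*Sox4* itself fell in the knockout. The brightest probe matched to it through RefSeq stood at 9.85 and 10.04 in the wild-type channels and at 7.36 and 7.50 in the knockout channels. Both arrays therefore showed the loss, with ratios of -2.49 and -2.54, and the fitted log2 fold change was -2.52 (SE 0.16, limma adjusted p = 0.00400). A second *Sox4* probe gave -2.64 (adjusted p = 0.00492). The knockout channels stayed above background on the brighter probe.

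The other members of the Sox family did not pass the test. *Sox11*, the closest relative, had ratios of 0.82 and -0.97 on the arrays, which point in opposite directions. No channel of the series held *Sox12*, the last SoxC gene, well above background. *Sox15*, a member expressed in stratified epithelia, gave 1.11 and 2.02 with a fitted value of 1.56 (adjusted p = 0.179). Its wild-type levels on these arrays, 6.63 and 5.56, were below the 7.38 to 8.75 seen in the other arrays' channels. *Sox9*, which marks hair follicle progenitors, had a fitted value of -0.04. *Sox5*, *Sox13* and *Sox21* lay at 0.14, 0.17 and -0.13. Of the 20 Sox genes measured, 9 were above background somewhere on these arrays and *Sox4* was the single one called.

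Among all 55681 probes, 78 were called, which is 0.14% of those tested. Of these, 22 were higher (0.0395%) and 56 lower (0.101%) in the knockout. By gene, using the brightest probe of each of 21368 named genes, 13 genes rose (0.0608%) and 21 fell (0.0983%). The other called probes were mostly without a gene symbol, 36 of the 78. Without a fold threshold 98 probes passed, and 4123 had an unadjusted p below 0.05. The arrays moved alike for the strongest changes, as 118 probes exceeded 1.5 in the same direction on both and 1 in opposite directions, whereas the correlation over all probes, which are not independent, was 0.157. Called counts depended strongly on the processing: an offset of 50 in the background correction left 3 called probes and the scanner software's own processed signals left 0 (3697 at an unadjusted p below 0.05). The counts also fell when a Sox4 cKO array was left out and rose when a Sox11 cKO array was. For Sox4 cKO, leaving out either Sox11 cKO array is the same fit, because the remaining one is taken up by its own genotype effect.

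**Figure D1:**
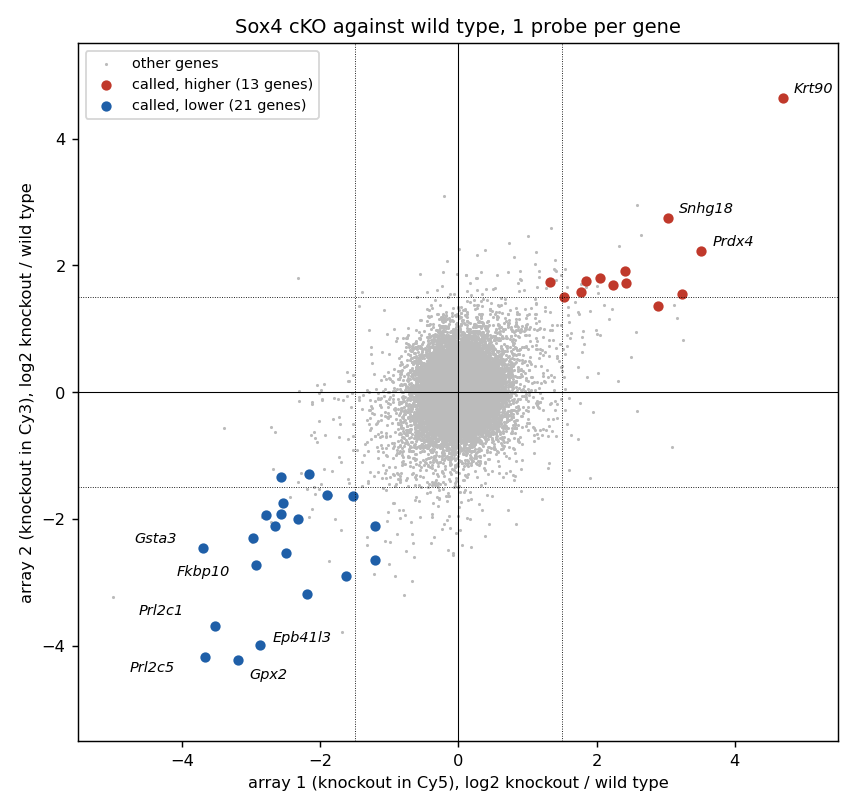
Log2 ratio of knockout over wild type on Sox4 cKO replicate 1 (x axis, knockout in Cy5) against replicate 2 (y axis, knockout in Cy3), 1 point per named gene at its brightest probe. The 13 called rises and 21 called falls are coloured, and they lie in the upper right and lower left, where both arrays moved the same way.

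The largest rise was that of *Krt90*, a type II keratin gene. Its wild-type levels were 5.80 and 6.20 and its knockout levels 10.50 and 10.84, so the channels were far apart on both arrays. The fitted log2 fold change was 4.67 (array ratios 4.70 and 4.64, SE 0.18, adjusted p = 0.00106). On the Sox11 cKO arrays the order was the opposite, with wild-type levels of 9.63 and 8.71 and knockout levels of 6.22 and 5.88. On the dcKO arrays no channel was well above background, at levels from 4.69 to 5.22. The Sox4 cKO ratio exceeded that in Sox11 cKO by 7.79 (adjusted p = 0.000317) and that in dcKO by 4.73 (adjusted p = 0.00217). Wild-type *Krt90* thus also differed between the arrays of the series, from 4.88, not above background, to 9.63.

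The promoter of *Krt90* in the RefSeq table for GRCm38.p6 is shown because no change was larger. These are the 250 bases before the start site, chr15:101562951-101563200, minus strand, 5′ to 3′, and they hold no match to the SOX-type motif described below.

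Krt90: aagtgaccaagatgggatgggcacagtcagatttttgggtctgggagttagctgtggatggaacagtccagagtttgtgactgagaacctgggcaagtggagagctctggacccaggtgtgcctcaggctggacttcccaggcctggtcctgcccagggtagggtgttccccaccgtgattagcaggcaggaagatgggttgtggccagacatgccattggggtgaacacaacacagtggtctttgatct

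*Snhg18* and *Sema5a* rose together. *Snhg18* is a long non-coding RNA that hosts a small nucleolar RNA, and *Sema5a* encodes a transmembrane semaphorin that guides migrating cells and axons. *Snhg18* was not well above background in the wild-type channels, at 4.66 and 4.53, and reached 7.69 and 7.29 in the knockout channels. It was at least 5.16-fold higher (fitted log2 fold change 2.89, adjusted p = 0.00270). Such a bound sets the mean knockout level against the lowest signal that counted as above background on each array, or the probe's own if that was higher. *Sema5a* stood at 4.99 and 4.92 in wild type, also not above background, and at 7.23 and 6.61 in the knockout, at least 3.39-fold higher (adjusted p = 0.00870). The wild-type channels of the Sox11 cKO arrays were likewise below background for both genes, but those of the dcKO arrays were not, with *Snhg18* at 8.02 and 8.24 and *Sema5a* at 6.82 and 7.62. *Snhg18* was also called in Sox11 cKO cells at 1.57 (adjusted p = 0.0251), where it went from 4.69 and 4.63 to 6.20 and 6.26. In dcKO cells it had a fitted value of 1.27 (adjusted p = 0.0106). *Sema5a* had 0.03 in Sox11 cKO and -0.10 in dcKO cells.

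Both genes start from one stretch of DNA and run in opposite directions. In the RefSeq promoter table their start sites lie 150 bases apart, and the promoter windows overlap by 250 bases. The sequence upstream of *Sema5a* is printed for that reason, GRCm38.p6 chr15:32244563-32244812, plus strand, 5′ to 3′, with the 150 bases between the start sites in capitals.

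Sema5a: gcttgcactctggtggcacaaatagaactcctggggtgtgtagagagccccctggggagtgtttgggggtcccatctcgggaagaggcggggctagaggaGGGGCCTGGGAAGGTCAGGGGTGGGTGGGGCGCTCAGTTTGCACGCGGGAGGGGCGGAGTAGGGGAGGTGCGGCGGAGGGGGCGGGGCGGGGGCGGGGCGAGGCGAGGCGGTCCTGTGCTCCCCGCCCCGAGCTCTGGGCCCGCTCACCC

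Probes without a gene name that the array design places on the same chromosome were called on one strand only. The array's own labels put them in the intervals chr15:32167516-32174427 and chr15:32167516-32174417, taken here as mm9. The probe labels name no genome build, so these positions are not set against the GRCm38.p6 positions above. Of the 5 reverse-strand probes of the longer interval, 4 were called, with fitted log2 fold changes of the 5 from 1.21 to 2.79 (adjusted p from 0.00396 to 0.0461). All 5 were below background in wild type and above it in the knockout, and the called ones were at least 3.08-fold to 5.59-fold higher. Of the 5 reverse-strand probes of the shorter interval, 2 were called and 3 were above background in both knockout channels, with fitted values of the 5 from -0.15 to 2.56. The 9 forward-strand probes of these intervals were not called, and their values lay between -0.17 and 0.23. Among the genes measured next to *Snhg18* and *Sema5a*, *Sdc2*, a cell surface proteoglycan, gave 1.48 (adjusted p = 0.150) and *Atpsckmt*, a mitochondrial methyltransferase, 0.99 (adjusted p = 0.167). A further interval of the array design, chr16:90038086-90127636, likewise taken as mm9, held 7 forward-strand probes. Of these, 2 were called at 1.73 and 1.56, while 0 of the 10 reverse-strand probes of that interval were.

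The other called rises had varied roles. *Prdx4* encodes a peroxiredoxin of the endoplasmic reticulum that reduces peroxides and feeds disulfide bond formation. Its wild-type levels were 7.01 and 7.77, and the knockout channels stood 3.52 and 2.23 higher, a fitted log2 fold change of 2.87 (SE 0.22, adjusted p = 0.00870). The other 8 channels of the series held *Prdx4* at 9.94 to 10.86, so the wild-type channels of the Sox4 cKO arrays stood apart, not the knockout ones. *Slc7a3*, a transporter of cationic amino acids, rose by 2.16 (adjusted p = 0.0396) from 7.54 and 6.35 to 9.96 and 8.26. In this gene all 4 channels lay above the wild-type range of the other arrays, 5.15 to 5.74. *Moxd1*, a monooxygenase-like protein of the secretory pathway, rose by 2.39 (adjusted p = 0.0356), with unequal array ratios of 3.24 and 1.55.

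*Gcnt3*, which branches mucin-type glycans, rose by 2.08 (adjusted p = 0.00870), from 6.43 and 6.00 to 8.86 and 7.73. *Acsbg1*, an acyl-CoA synthetase for very long fatty acids, rose by 1.93 (adjusted p = 0.0494). *Eci1*, a mitochondrial enzyme that prepares unsaturated fatty acids for oxidation, rose by 1.67 (adjusted p = 0.0245). Both lipid genes had wild-type levels here below those of the other arrays: *Acsbg1* stood at 8.34 and 9.03 against 10.37 to 12.16, and *Eci1* at 8.57 and 8.75 against 8.86 to 10.95. *Wfdc18*, a secreted protein with a whey acidic protein domain, rose by 2.13 (adjusted p = 0.0464). *Adm2*, a peptide hormone of the calcitonin family, rose by 1.51 (adjusted p = 0.0265). *Zfp275*, a zinc finger gene, rose by 1.53 (adjusted p = 0.0401). Its wild-type levels of 6.52 and 6.32 lay below every other channel of the series, the lowest of which was 7.17.

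*H2-Ab1*, a chain of the MHC class II molecule that presents antigen, rose by 1.80 (SE 0.15, adjusted p = 0.0119). Its levels were 5.59 and 7.19 in wild type and 7.43 and 8.94 in the knockout, so the replicates differed from each other by nearly as much as the genotypes did, and the ratios of 1.84 and 1.75 rest on the pairing within arrays. A second probe gave 1.69 (adjusted p = 0.0172). Of the 11 immune cell markers measured, 4 were above background in any channel of these arrays. *Ptprc*, the common leukocyte antigen, and the other class II genes *Cd74* and *H2-Aa* were not. The summed level of all 11 markers ran from 2228 to 3133 in wild type and from 2674 to 2960 in the knockout. A part of immune cells in the *H2-Ab1* result was not tested beyond these values.

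**Figure D2:**
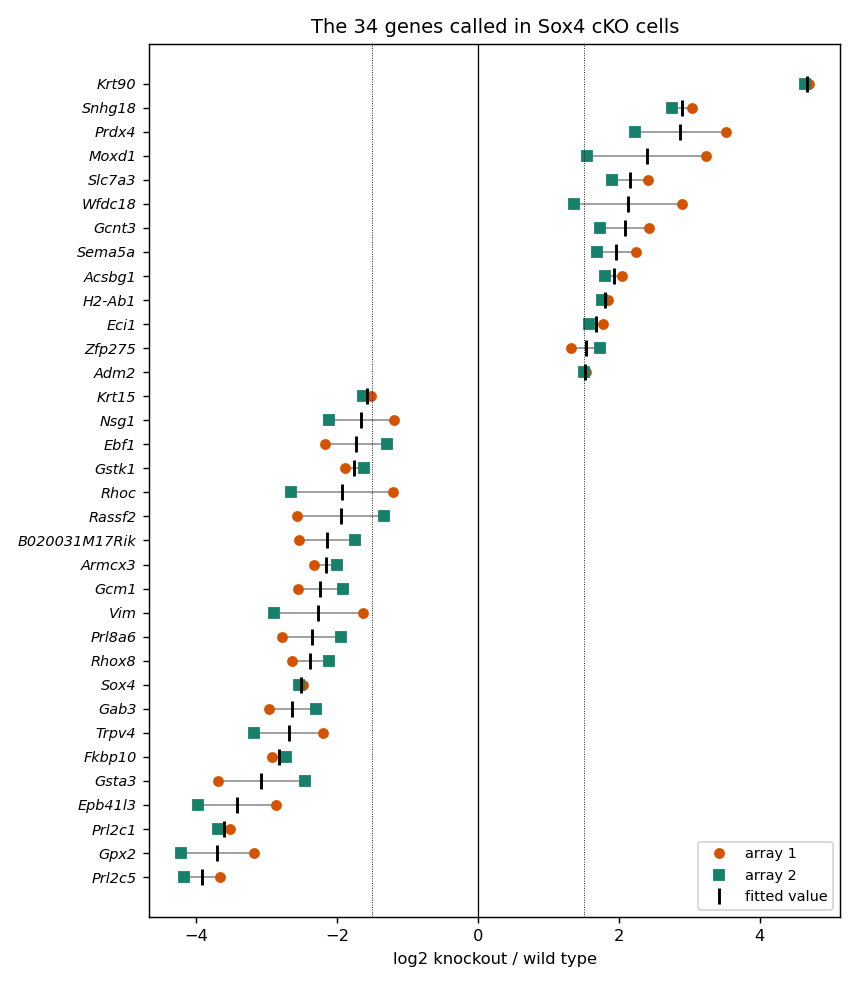
Log2 ratio of knockout over wild type for the 34 called genes, each at its brightest probe, with 1 symbol per array and a bar at the fitted value. For every gene both arrays lie on the same side of 0, from *Krt90* at 4.67 to *Prl2c5* at -3.92.

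Among the called genes the lowest values were those of *Prl2c5*, *Gpx2* and *Prl2c1*, that is of 2 prolactin family genes and 1 glutathione peroxidase. *Prl2c5* belongs to the proliferin genes, whose secreted products are related to prolactin and are best known from placenta. It stood at 15.25 and 15.19 in wild type and at 11.59 and 11.01 in the knockout. The fitted log2 fold change was -3.92 (SE 0.42, adjusted p = 0.0314), and a second probe gave -3.77. *Prl2c1*, a close relative, went from 13.73 and 13.80 to 10.20 and 10.11 (fitted -3.61, adjusted p = 0.0401). Proliferin genes are similar in sequence, so the probes of *Prl2c5* and *Prl2c1* may share targets. *Prl8a6*, another member, went from 8.16 and 7.53 to 5.37 and 5.59, the latter not above background, and had a fitted value of -2.37 (adjusted p = 0.00870).

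Wild-type levels of *Prl2c5* ranged from 13.66 to 15.25 over the series. The Sox4 cKO channels were the lowest of all 12 channels for both *Prl2c5* and *Prl2c1*. In dcKO cells, which also lack *Sox4*, the fitted values were 1.31 for *Prl2c5*, 1.31 for *Prl2c1* and 0.92 for *Prl8a6*. The difference between Sox4 cKO and dcKO was -5.24 for *Prl2c5* (adjusted p = 0.0190), -4.92 for *Prl2c1* (adjusted p = 0.0235) and -3.28 for *Prl8a6* (adjusted p = 0.00561).

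*Prl2c1* and *Prl8a6* belong to a run of prolactin genes beside *Sox4* on chromosome 13, whereas *Prl2c5* lies elsewhere on that chromosome. In the RefSeq table for GRCm38.p6 the promoter window of *Prl2c5* is chr13:13182466-13182765, and that of *Sox4* is chr13:28953650-28953949. All 20 measured genes next to *Sox4* on one side were of this family, without *Prl2c5*, and 9 of these were above background. Of the 20, 2 were called, *Prl8a6* and *Prl2c1*, 9 were lower on both arrays and 1 was higher on both. *Prl8a1* gave -4.99 and -3.23 with a fitted value of -4.11 (adjusted p = 0.0793), *Prl7b1* gave -1.95 (adjusted p = 0.150) with neither knockout channel above background, which makes it at least 3.85-fold lower, *Prl8a9* -1.58 (adjusted p = 0.388) and *Prl2a1* -1.13 (adjusted p = 0.609). The median over the 20 was -0.18. Of the 20 genes on the other side, 14 were above background, 0 were called and the median was -0.03. *Serpinb6b*, a protease inhibitor on that side, gave -2.27 (adjusted p = 0.244). A floxed allele keeps DNA of the strain it was made in next to the gene, and the part of such DNA in these values was not tested. *Prl8a1* in dcKO cells stood at 2.40, and its difference from dcKO was -6.51 (adjusted p = 0.0288).

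**Figure D3:**
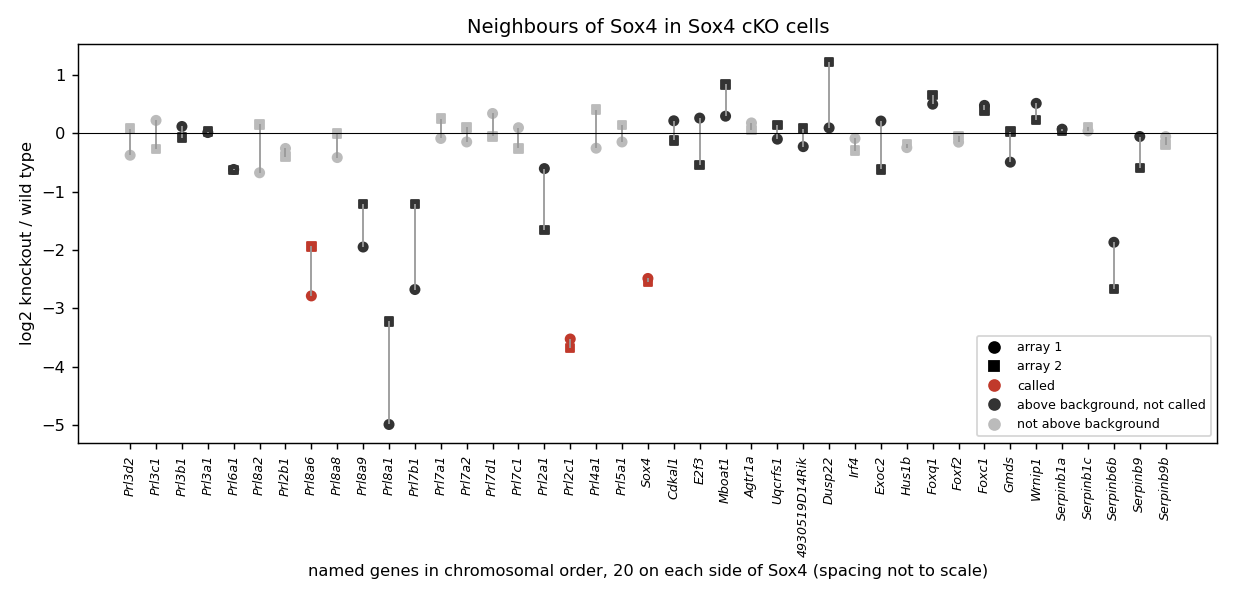
Log2 ratios on both arrays for 20 measured genes on each side of *Sox4*, in chromosome order (spacing not to scale), with circles for array 1, squares for array 2, called genes in red and genes not above background in grey. Low values cluster on the side of the prolactin family, where *Prl8a1*, at -4.99 and -3.23, lies lowest. On the other side *Serpinb6b*, with a fitted value of -2.27, lies lowest.

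Enzymes of glutathione metabolism were also among the falls. *Gpx2*, an intestinal and epithelial glutathione peroxidase, went from 12.40 and 13.12 in wild type to 9.21 and 8.90 in the knockout. The fitted log2 fold change was -3.71 (SE 0.46, adjusted p = 0.0448). *Gsta3*, a glutathione transferase, went from 11.48 and 11.90 to 7.79 and 9.44 (fitted -3.08, adjusted p = 0.00396), and its second probe gave -2.73. Its wild-type pair lay above all other channels of the series, which reached 10.52. The other wild-type channels held it at 8.11 to 10.52, and the knockout pair did not wholly leave that range. *Gstk1*, a mitochondrial and peroxisomal transferase, fell by 1.76 on the log2 scale (adjusted p = 0.0314).

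Of 68 measured genes of glutathione and redox metabolism, these 3 were called lower and *Prdx4* was called higher. The list's median was 0.01, beside 0.00 over all genes, and 25 members were lower and 17 higher on both arrays. Uncalled members with negative values, picked after their values were seen, were *Cbr3*, a carbonyl reductase, at -1.87 (adjusted p = 0.108), *Mgst2* at -1.21 and *Nqo1*, a quinone reductase, at -1.11. Uncalled members that rose are not shown beside them. In Sox11 cKO cells *Gsta3* was called at -2.22 (adjusted p = 0.0145) and *Gstk1* at -2.15 (adjusted p = 0.0169), and *Gpx2* gave -2.23 (adjusted p = 0.206). The differences between Sox4 cKO and Sox11 cKO had adjusted p of 0.799 for *Gpx2*, 0.590 for *Gsta3* and 0.90 for *Gstk1*. In dcKO cells the fitted values of *Gpx2*, *Gsta3* and *Gstk1* were 1.71, 0.40 and 0.11. The differences between Sox4 cKO and dcKO were -5.41 (adjusted p = 0.0225), -3.48 (adjusted p = 0.00534) and -1.87 (adjusted p = 0.0372). The wild-type channels on the dcKO arrays held *Gpx2* at 7.58 and 7.92, far below the 12.40 to 13.46 of the other wild-type channels.

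The sequence before *Gpx2* is shown because it held a match to a SOX-type motif, GRCm38.p6 chr12:76795555-76795804, minus strand, 5′ to 3′. The letters searched were AACAAAG and AACAATG on both strands, and the match, from 28 to 22 bases before the start, is in capitals.

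Gpx2: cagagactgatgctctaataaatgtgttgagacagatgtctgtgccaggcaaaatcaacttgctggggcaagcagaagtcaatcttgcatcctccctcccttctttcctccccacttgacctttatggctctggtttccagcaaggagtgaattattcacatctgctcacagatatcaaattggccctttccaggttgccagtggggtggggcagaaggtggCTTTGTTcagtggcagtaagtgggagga

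Promoters were given for 23 of the 34 called genes, and 2 of these genes (8.70%) held such letters within the window of 250 bases before to 50 after the start. Of all 32851 promoters, 3074 (9.36%) did. The letters were therefore about as frequent before called genes as elsewhere in this short window, and a match here is a description of the sequence only.

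The remaining called falls had varied roles. *Fkbp10*, a prolyl isomerase that helps fold collagen, went from 13.51 and 13.73 to 10.58 and 11.01. The fitted log2 fold change was -2.83 (SE 0.15, adjusted p = 0.00270). On the other 4 arrays *Fkbp10* ranged from 5.77 to 11.79, so the Sox4 cKO channels lay within that range and the wild-type channels of the same arrays above it. The ratio differed from that in Sox11 cKO by -3.67 (adjusted p = 0.00993) and from that in dcKO by -1.92 (adjusted p = 0.0190).

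*Vim*, the intermediate filament protein vimentin of mesenchymal and motile cells, went from 8.44 and 8.16 to 6.81 and 5.25, the latter not above background (fitted -2.27, adjusted p = 0.0337). On the other arrays *Vim* did not exceed 5.41, and 1 of those 8 channels was above background. *Epb41l3*, which links membrane proteins to the spectrin and actin skeleton, went from 10.70 and 11.76 to 7.82 and 7.77 (fitted -3.43, adjusted p = 0.0119). The remaining wild-type channels held it at 5.43 to 8.78. For both genes the wild-type cells of the Sox4 cKO arrays again lay above all other cultures of the series.

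*Trpv4*, a calcium channel opened by warmth and stretch, fell by 2.69 on the log2 scale (adjusted p = 0.0494), and a second probe gave -2.31 (adjusted p = 0.0128). Its wild-type levels of 10.20 and 11.07 were within the range of the other wild-type channels, 9.85 to 11.24, and its knockout levels of 8.01 and 7.88 below it. *Trpv4* gave -2.47 in Sox11 cKO (adjusted p = 0.0792) and -1.63 in dcKO cells (adjusted p = 0.0692). Its second probe was called in Sox11 cKO at -1.86 (adjusted p = 0.0328) and gave -1.40 in dcKO cells (adjusted p = 0.0186). *Rhoc*, a small GTPase of actin assembly and migration, fell by 1.93 (adjusted p = 0.0326), and its second probe gave -1.22 (adjusted p = 0.0564). *Armcx3*, which takes part in mitochondrial transport, fell by 2.16 (adjusted p = 0.0113), although a second probe gave -0.78 (adjusted p = 0.449). *Krt15*, a keratin of basal cells and hair follicle stem cells, went from 9.67 and 7.81 to 8.15 and 6.17 (fitted -1.58, adjusted p = 0.0245). Its array ratios of -1.52 and -1.64 were close, whereas its level varied from 5.68 to 10.59 over the other wild-type cultures. *Ebf1*, a transcription factor of B cells and mesenchyme, *Rassf2*, a Ras-association protein, *Nsg1*, a neuronal endosomal protein, and *B020031M17Rik* had log2 fold changes from -2.14 to -1.66, with *Ebf1* above background in 1 of the 2 knockout channels. In each of these genes and in *Armcx3* the wild-type pair lay above all other channels of the series.

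For 2 more genes a call rested on a probe other than the brightest. *Trim47*, a ubiquitin ligase, was called at -1.78 on one probe and gave -1.54 on its brightest (adjusted p = 0.0559). *Cplx2*, a regulator of vesicle fusion, was called at -1.73 on one probe, whereas its brightest probe gave -0.01.

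**Figure D4:**
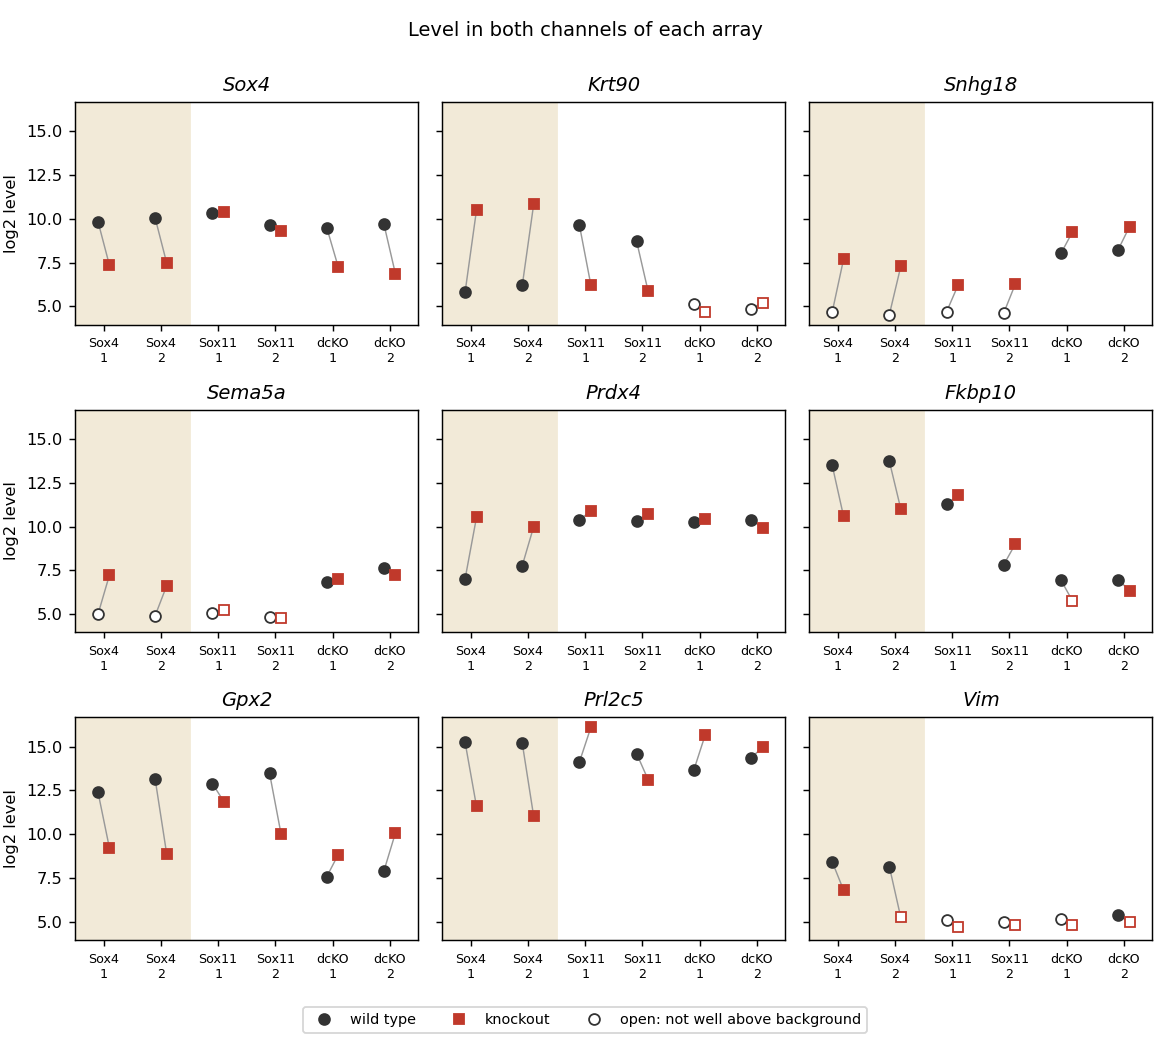
Log2 intensity level in all 12 channels of the series for 9 of the genes described, with wild type and knockout of each array joined and channels not well above background drawn open. On the Sox4 cKO arrays *Prdx4*, *Fkbp10* and *Vim* stand apart in wild type, whereas *Krt90* and *Prl2c5* reach their highest and lowest levels in the knockout.

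Across the 34 called genes, both channels were set against the range of the 4 wild-type channels on the Sox11 cKO and dcKO arrays. In 9 genes only the knockout pair lay outside that range and in 14 only the wild-type pair. In 7 genes both pairs lay outside it and in 4 neither did. In 14 genes the wild-type pair lay outside all 10 other channels of the series. By the mean of those 4 channels, the wild-type side lay farther away than the knockout side for 34 of the 78 called probes, beside 55.7% of all probes. Of the 78, 26 share the single profile described below and hold only 3 of the 34, so the comparison with all probes depends on that set. These counts describe where the levels were and have no test. Whether the wild-type cultures of the Sox4 cKO arrays differed from the others in a way unrelated to *Sox4* was not tested. *Xist*, which is expressed in female cells, was above background in all 4 channels of the Sox4 cKO arrays, with ratios of -0.21 and -0.82. It was also above background in every channel of the dcKO arrays, at 8.19 to 9.46, and in no channel of the Sox11 cKO arrays.

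A set of lower probes followed one profile over all 12 channels. Of the 56 called lower probes, 26 correlated above 0.95 with the median profile of 23 unnamed probes among them, and 22 of the 26 carried no gene symbol. The other 4 were the probes of *Gcm1*, a transcription factor of placental trophoblast, on 2 probes, of *Gab3*, a docking protein of growth factor signalling, and of *Rhox8*, a homeobox gene of the reproductive tract. The lowest correlation between any pair of the 26 was 0.904, and the median 0.977. Of all probes, 47 (0.0846%) followed the profile, 21 of them uncalled. The members were chosen by their likeness, so the correlations are a description.

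Fitted log2 fold changes in the set ran from -2.94 to -2.01. *Gcm1* gave -2.24 (adjusted p = 0.0464), from 12.50 and 11.36 to 9.94 and 9.44, and *Rhox8* gave -2.38 (adjusted p = 0.0464). *Gab3* gave -2.64 (adjusted p = 0.0463). Further probes of these genes gave other values, at -0.14 and -0.41 for *Gcm1*, 0.32 for *Gab3* and -0.20 for *Rhox8*, and 0 of these were called. The *Gcm1* probe at -0.41 and the *Gab3* probe were above background in no wild-type channel of these arrays and could not have shown a fall. The called probes of these 3 genes share their profile with 22 unnamed probes, and whether the probes share a target was not tested, as their sequences were not used here. In dcKO cells the set lay between -0.61 and -0.04 and in Sox11 cKO cells between -0.39 and -0.05. Set aside, 30 called lower probes and 18 called lower genes remain.

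**Figure D5:**
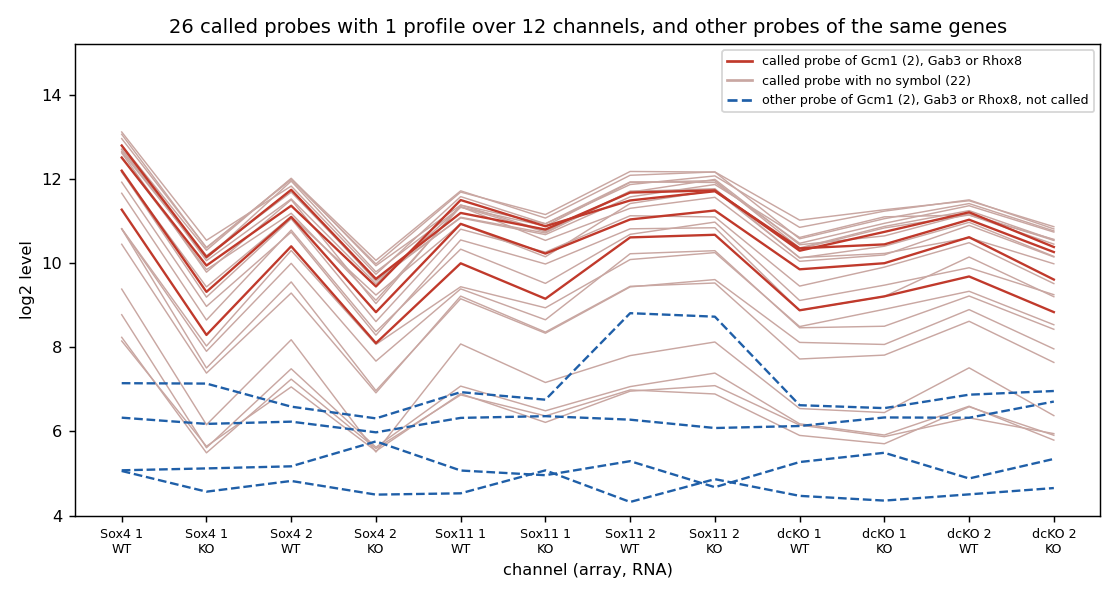
Log2 level (y axis) of the 26 called probes with one shared profile in each of the 12 channels (x axis), with the 4 called probes of named genes in red and 4 other probes of *Gcm1*, *Gab3* and *Rhox8* dashed. The 26 lines run in parallel and are lower in both Sox4 cKO knockout channels than in their wild-type partners, whereas the dashed probes had fitted log2 fold changes from -0.41 to 0.32, 2 of them, of *Gcm1* and *Gab3*, with no wild-type channel of these arrays above background.

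Beyond the single genes, 38 lists of pathway and cell type genes were counted. Over all genes the median was 0.00, with 25.9% higher and 25.3% lower on both arrays. Of the 34 called genes, 15 belonged to a list, and 28 lists had no called member. The medians of those 28 lay between -0.47 and 0.28.

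Genes of amino acid transport and synthesis had 1 call among 51, *Slc7a3*. In this list 22 members were higher on both arrays and 10 lower, with a median of 0.11. *Cth*, which makes cysteine, gave 1.74, *Trib3*, a stress-induced pseudokinase, 1.26, *Psph*, of serine synthesis, 1.17, *Asns*, of asparagine synthesis, 0.91 and *Atf4*, the transcription factor that drives many of them, 0.90. None of these 5 was called, with a limma adjusted p of 0.441 for *Cth* and 0.434 for *Trib3*. They were picked among members that rose, and members that fell are not shown beside them. In the endoplasmic reticulum folding list *Prdx4* was the single call among 31, and 16 members were lower and 3 higher on both arrays (median -0.26). *Xbp1*, a transcription factor of the unfolded protein response, and *Pdia5*, a disulfide isomerase, were not called, with *Xbp1* at 12.87 and 12.48 in wild type and 12.13 and 11.81 in the knockout and *Pdia5* at 8.71 and 8.68 against 7.68 and 8.16.

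No member was called among 37 ligands of the EGF receptor and feedback genes of ERK signalling, where 20 were higher and 5 lower on both arrays (median 0.26). *Areg*, a ligand that drives keratinocyte growth, gave 1.74 (adjusted p = 0.0605), and *Etv5*, a transcription factor downstream of ERK, 1.33. *Areg* had wild-type levels of 7.22 and 6.83 and knockout levels of 8.77 and 8.77. Among 40 genes of glycolysis and hypoxia 0 were called, with 22 higher and 7 lower on both arrays (median 0.28). *Car12*, a carbonic anhydrase, gave 1.46 (adjusted p = 0.112) and *Slc16a3*, a lactate exporter, 1.79 (adjusted p = 0.535). Cell cycle genes had 0 calls among 63, and their median was -0.07 on one array and 0.55 on the other.

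Among 25 genes that the study lists as directly activated by SOX11 and SOX4, 0 were called. That list was drawn from genes lower in the dcKO keratinocytes of these arrays, where the study looked for genes changed in dcKO and in neither single knockout, so the count is only a description. Their median was -0.02, with 7 higher and 7 lower on both arrays. *Pxdn*, a peroxidase that crosslinks collagen IV, gave -1.36 (adjusted p = 0.0995) and *Vcan*, a matrix proteoglycan, -1.08.

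Differentiation genes showed no called member in the epidermal differentiation complex (62 genes, median 0.09), the suprabasal list (52 genes, median -0.02) or the desmosome and junction list (40 genes, median 0.00). Among 52 keratins *Krt90* was the single rise and *Krt15* the single fall. *Krt18*, a keratin of simple epithelia, gave 1.59 (adjusted p = 0.0559). *Krt15* was also the single call among 31 basal keratinocyte genes. Among 62 genes of the actin cytoskeleton and migration, *Epb41l3* and *Rhoc* were called lower, and 21 members were lower and 11 higher on both arrays. *Acta2*, smooth muscle actin, had an adjusted p of 0.0326 at -1.36, short of the fold threshold.

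*Vim* was the single call among 22 genes of mesenchymal transition, of which 10 were higher and 6 lower on both arrays (median 0.08). *Cdh2*, the cadherin of neural and mesenchymal cells, and *Fn1*, fibronectin, had fitted values of -1.83 and -1.32 with unequal arrays and were not called. *Cdh2* stood at 10.68 and 13.06 in wild type and 10.01 and 10.08 in the knockout. Extracellular matrix genes had 0 calls among 56, with 25 lower and 14 higher on both arrays. Wnt (66 genes), TGF-beta and BMP (55), Notch (31), chemokine and cytokine (51), interferon (46) and p53 (30) genes had 0 calls each, with medians from -0.08 to 0.11.

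Among 10 hair follicle markers 0 were called and 6 were lower on both arrays. *Tbx1*, a transcription factor of follicle stem cells, gave -1.69 (adjusted p = 0.0829). The summed level of all 10 was 2722 and 1870 in wild type and 1454 and 1012 in the knockout. It includes 5 markers above background in no channel of these arrays. *Tbx1* itself went from 10.66 and 9.48 to 9.42 and 7.33 on the log2 scale, so it weighs heavily in that sum. *Krt15*, which the same cells express, moved in that direction. *Sox9*, which marks follicle progenitors, had a fitted value of -0.04 with array ratios of 0.44 and -0.53. A part of follicle cells in the *Krt15* value was not tested.

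Another 20 probes passed the adjusted p without reaching the fold threshold, 9 higher and 11 lower. *Fosl1*, an AP-1 subunit of migrating keratinocytes, was among them at 1.24 (adjusted p = 0.0422). *Armcx1*, a relative of *Armcx3*, was among the lower ones at -1.27 (adjusted p = 0.0356), and so was *Cd55*, which protects cells from complement, at -1.22 (adjusted p = 0.0482).

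Differences from the other genotypes were tested as contrasts within the fitted model, since a call in one genotype alone does not show a difference. Over all probes, 6 (0.0108%) differed between Sox4 cKO and Sox11 cKO and 375 (0.673%) between Sox4 cKO and dcKO at an adjusted p below 0.05. Among the 78 called probes 3 differed from Sox11 cKO and 21 from dcKO. Because those probes were chosen on the Sox4 cKO ratios that enter these contrasts, their count is a description. Genes such as *Armcx3*, at -2.16 in Sox4 cKO and -2.33 in dcKO, and *Adm2*, at 1.51 and 1.55, had values close to each other in both genotypes that lack *Sox4*. *Gcnt3* and *Slc7a3* were also called in dcKO, at 2.38 (adjusted p = 0.00126) and 2.57 (adjusted p = 0.00569). So was *Rhoc*, at -3.15 (adjusted p = 0.00125). The differences of *Gcnt3*, *Slc7a3* and *Rhoc* between Sox4 cKO and dcKO had adjusted p of 0.705, 0.745 and 0.142. The difference of *Armcx3* was 0.17 (adjusted p = 0.869) and that of *Adm2* -0.04 (adjusted p = 0.976), and a p that misses the threshold does not show equality.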

How the data were processed

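RNA of cultured keratinocytes was measured on 2-colour Agilent arrays, 2 for Sox4 cKO and 4 of other genotypes, grouped by the genotype in the sample titles. The deposited scanner files hold median spot intensity values and median local background intensity values on a linear scale, made with Agilent Feature Extraction 11.0.1.1 per the submitters' processing notes and not yet normalised. Log2 ratios of the same arrays were deposited by the authors too, after their own background correction, loess and removal of dye effects. Compared with the scanner values these ran as knockout over wild type (correlations 0.89 to 0.95) and served only as an alternative.

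In R 4.3.3 with limma 3.58.1, signals were corrected by normexp with the study's offset of 16. Of 62976 spots, 3671 control spots were then dropped. Spots marked as outliers (237 and 288 on the Sox4 cKO arrays) were set to missing, and 0 were saturated. Loess was applied within arrays, and spots were averaged to 55681 probes. Levels are the same data after Aquantile scaling between arrays.

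The model was fitted over all 6 arrays with 3 genotype effects and a dye term, which equals a block on the replicate number. It left 2 residual degrees of freedom, to which the prior added 5.37. Adjusted p-values (Benjamini-Hochberg) cover all probes of a comparison, and the thresholds of 0.05 and 1.5 are the study's. The array values shown beside a fit include the dye effect. Same-numbered arrays deviated together, with correlations over probes of 0.316, 0.244 and 0.125. Replicate number and dye orientation cannot be told apart. With 1 slide and 1 scan for all arrays, no batch of that kind could be tested. The pipeline was tested on simulated data.

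RefSeq accessions in the files were matched without versions to the GRCm38.p6 table, which named 28331 probes of 21368 genes, 95.1% of 29786 accessions and 50.9% of all probes. Each gene is given at its brightest probe. Genes named in full were the 12 largest called rises and falls, further called genes, *Sox4* with its family and neighbours, and list members with the largest values. Others, and the promoters printed, were chosen after their values were seen. Members and lists were chosen with earlier results of these data known. The number of arrays limits the precision of each value.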

Additional observations from a re-analysis of the deposited data

Results flagged for a closer look

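The ratios below were marked because the log2 fold change in Sox4 cKO differed from that in another genotype, at a limma adjusted p below 0.05 for the difference itself. Only genes named in this text are given, whereas over all probes 6 differed from Sox11 cKO and 375 from dcKO. Against Sox11 cKO, 2 of the named genes were marked, *Krt90*, higher in Sox4 cKO by 7.79, and *Fkbp10*, with a difference of -3.67.

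Against dcKO the called rises with a higher value in Sox4 cKO were *Krt90* (4.73), *Prdx4* (3.00), *Acsbg1* (2.65), *Sema5a* (2.07) and *Snhg18* (1.62). Called falls with a lower value in Sox4 cKO were *Gpx2* (-5.41), *Prl2c5* (-5.24), *Prl2c1* (-4.92), *Gsta3* (-3.48), *Prl8a6* (-3.28), *Krt15* (-2.43), *Fkbp10* (-1.92), *Gstk1* (-1.87) and *Ebf1* (-1.73).

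Of the genes named in this text, some not called in Sox4 cKO also differed from dcKO. *Etv5* differed by 4.05, *Pxdn* by 4.02, *Fosl1*, an AP-1 factor, by 2.96, *Krt18* by 5.62, *Acta2* by 1.37, *Areg* by 3.86, *Irf1*, an interferon response factor, by 3.71, *Sox11* by 3.36, *Odc1*, the first enzyme of polyamine synthesis, by 3.16 and *Cdkn1c*, a cell cycle inhibitor, by 2.72. Negative differences were those of *Spink5*, a protease inhibitor of the outer epidermis (-4.79), *Col4a5*, a basement membrane collagen (-2.44), and *Sesn1*, a stress-induced sestrin (-1.95). *Prl8a1* differed by -6.51. *Pxdn* is on a list the study drew from genes lower in dcKO cells of these arrays, so its difference is a description. For each of these genes except *Prl8a1* (-4.11 in Sox4 cKO, 2.40 in dcKO) the value in dcKO was the larger in size, from 1.04 for *Sesn1* to -5.37 for *Pxdn*, and *Sox11* was deleted in dcKO by design.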

How the results depend on the processing

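The direction of all 34 called genes was the same under the 17 alternatives, but their calls were not. These are not 17 separate checks. For Sox4 cKO, leaving out either Sox11 cKO array is the same fit, and so is leaving out either dcKO array. *Krt90* was called under 15 of the 17 alternatives, *Fkbp10* under 14, and *Sox4*, *Snhg18* and *Gsta3* under 13 each. *Prl2c1*, *Prl2c5* and *Trpv4* were called under 6. For Sox4 cKO against wild type, the 78 called probes became 3 at offset 50, 0 in limma with the scanner software's processed signals (3697 at an unadjusted p below 0.05), 122 with the authors' table, 35 without background correction, 36 with the dye effect subtracted first, 193 with the Sox4 cKO arrays alone and 24 of 22098 probes when dim probes were left out. The share called higher was 28.2%, and 42.9% without background correction. With the mean over a gene's probes, 5 genes were called in place of 34. With no replicate block, that is no dye term, 35 probes were called, and the differences from Sox11 cKO and dcKO had 1 and 97. Those differences had 6 and 313 called probes with the block. They became 1 and 0 with an offset of 50, 0 and 0 with the processed signals (3406 and 6422 at an unadjusted p below 0.05), and 17 and 1118 under median centring, where 86.7% of the differences from dcKO were higher in place of 55.3%. At an offset of 50 the dcKO difference had 6673 probes at such a p. Leaving out 1 array at a time gave 0 to 185 called probes for Sox4 cKO, 1 to 793 for the difference from Sox11 cKO and 21 to 811 for that from dcKO. The lowest of these came without a Sox4 cKO array and the highest without a Sox11 cKO array. Without Sox4 cKO replicate 1 limma found 2517 probes at an unadjusted p below 0.05. The cause of these shifts was not tested.

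Uncalled genes that changed sign were *Cplx2* (0.012 with processed signals, 0.077 under median centring), *Sox12* (-0.42 with processed signals), *Sox21* (0.056 with the mean over probes) and *Sox9* (0.010 under median centring). With 1 array left out, *Cdh2* ranged from -3.83 to 0.17, *Sox11* from -0.95 to 0.81, *Sox12* from -0.037 to 0.10, *Sox9* from -0.38 to 0.29 and *Spink5* from -2.57 to 0.47. Mean spot signals were planned as an alternative and not run, because the files used here hold median signals. With a profile correlation of 0.90 in place of 0.95, an alternative chosen after seeing the data, 28 called probes followed the shared profile in place of 26.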
